A study of Mus musculus with 8 samples.

Results

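DNA damage repair genes were followed in lung endothelial cells (ECs) of neonatal mice reared in room air or in hyperoxia, an exposure used to model bronchopulmonary dysplasia. The group holds 44 genes named for their known repair functions, and its members are the rows of the deposited gene table that carry those 44 gene names. All 44 were present among the 54532 genes of the table, and all 44 had enough reads to be tested, as had 15564 genes in all. The rule uses gene names and no measured value, but members were chosen with earlier results of these data known.

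The libraries came from 4 normoxia and 4 hyperoxia samples of wild-type mice (C57BL/6J in the methods of the study). Normoxia pups stayed in room air (21% O2), and hyperoxia pups breathed 80% O2 from birth to postnatal day 14, when the lungs were taken. No sample carried a transgene, a deletion or a drug. ECs were enriched from dissociated lung by removing CD45+ cells on beads and then capturing CD31+ cells on beads, so that other cell types can be carried along. The labels do not say that each library came from its own animal, and p-values therefore measure the spread between these samples, which may be in part technical.

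Cells repair DNA by several partly separate routes. Base excision repair and single-strand break repair deal with oxidised bases and nicks, the kind of lesion that reactive oxygen makes most of. Nucleotide excision repair removes bulky adducts, mismatch repair corrects replication errors, and double-strand breaks are joined by end joining or copied from the sister chromatid by homologous recombination, while translesion polymerases copy past lesions that have not been removed. Damage is announced by the kinases ATM and ATR, and one of their outputs is p53, a transcription factor that switches on cell cycle arrest and cell death genes along with a few repair genes.

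The 8 libraries held between 16098086 and 18300730 counts. Pan-endothelial genes were abundant everywhere, their summed level lying between 16778 and 17752 CPM (reads of a gene scaled to a fixed library size) in normoxia and between 16247 and 17178 in hyperoxia. The most abundant were Cdh5, Pecam1 and Cldn5, with Cdh5, the VE-cadherin gene, at means of 4121 and 4035 CPM, and 4 of the 12 rose while 4 fell. Alveolar epithelial genes, which mark another cell type, were also present, and 16 of 16 were higher in hyperoxia (summed 291 to 400 CPM in normoxia, 857 to 2537 in hyperoxia), with none of them at 0 counts in any library. Mural and myofibroblast genes were higher for 7 of 9 tested (48.1 to 85.1 against 105 to 184 CPM) and fibroblast genes for 5 of 9 (183 to 366 against 251 to 640 CPM). Leukocyte genes were higher for 1 of 12 and lower for 1 of 12, erythroid and platelet genes higher for 1 of 6 and lower for 3 of 6, and of 6 airway genes the 2 that could be tested did not pass, Sox2 and Krt5 being at 0. The low epithelial sum of 857 CPM set hyperoxia 3 apart within its group, and results are therefore also given without it.

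Most repair genes, like most of all genes tested, showed no change that passed the test in hyperoxia. Of the 44 members, 5 were higher (Mgmt, Polk, Xrcc5, Ercc5 and Ddb1), where 18.5% of all genes tested were higher. A further 10 were lower (Rad51c, Ddb2, Rrm2b, Prkdc, Rad52, Nbn, Xpc, Atr, Ercc2 and Mre11a), where 17.1% of all genes were lower, and 29 did not pass. Of all 15564 genes tested, 10029 did not pass. The larger changes were increases, with the direct reversal protein gene Mgmt rising 10.8-fold, the translesion polymerase gene Polk 1.94-fold, the Ku80 gene Xrcc5 1.87-fold and the excision nuclease gene Ercc5 1.64-fold. Decreases were shallow, from 1.19-fold for Mre11a to 1.504-fold for Rad51c. In bulk samples, fewer cells of a type and less RNA per cell cannot be told apart.

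A gene counted as higher or lower at an adjusted p below 0.05 in edgeR's quasi-likelihood test over all 15564 genes. The 5 of 44 higher is a smaller share than that of all genes and the 10 of 44 lower a somewhat larger one, and neither difference was tested. Requiring in addition a log2 difference no smaller than 1 left Mgmt alone among the members, against 5.62% of all genes higher and 1.36% lower. All 4 hyperoxia libraries lay above all 4 normoxia libraries for 7 members and below them for 9 members, against 17.8% and 17.6% of all genes. The median log2 fold change (hyperoxia relative to normoxia) was -0.06 over the members, with 18 positive and 26 negative, and -0.004 over all genes tested. Without hyperoxia 3 the counts were 5 higher and 8 lower, where 17.6% of all genes tested were higher and 15.7% lower. With the mean log2 level of the alveolar epithelial genes as a covariate, 0 members passed in either direction (8 higher and 0 lower at an unadjusted p below 0.05), and 174 genes higher and 34 lower were left in the whole table. In that fit the log2 fold changes of several called members were close to those without it but had larger SEs, such as 0.96 (SE 0.22) for Polk, -0.33 (SE 0.16) for Xpc, -0.31 (SE 0.19) for Atr, -0.40 (SE 0.24) for Rrm2b and -0.60 (SE 0.55) for Rad51c. Those of Mgmt, at 2.11 (SE 0.66), and Prkdc, at -0.16 (SE 0.22), were smaller, and that of Ercc2, at -0.55 (SE 0.27), was larger. That score separated the groups completely, from 2.34 to 2.94 in normoxia and from 4.15 to 5.66 in hyperoxia, and its part in the members' changes cannot be told apart from the exposure in that fit.

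**Figure D1:**
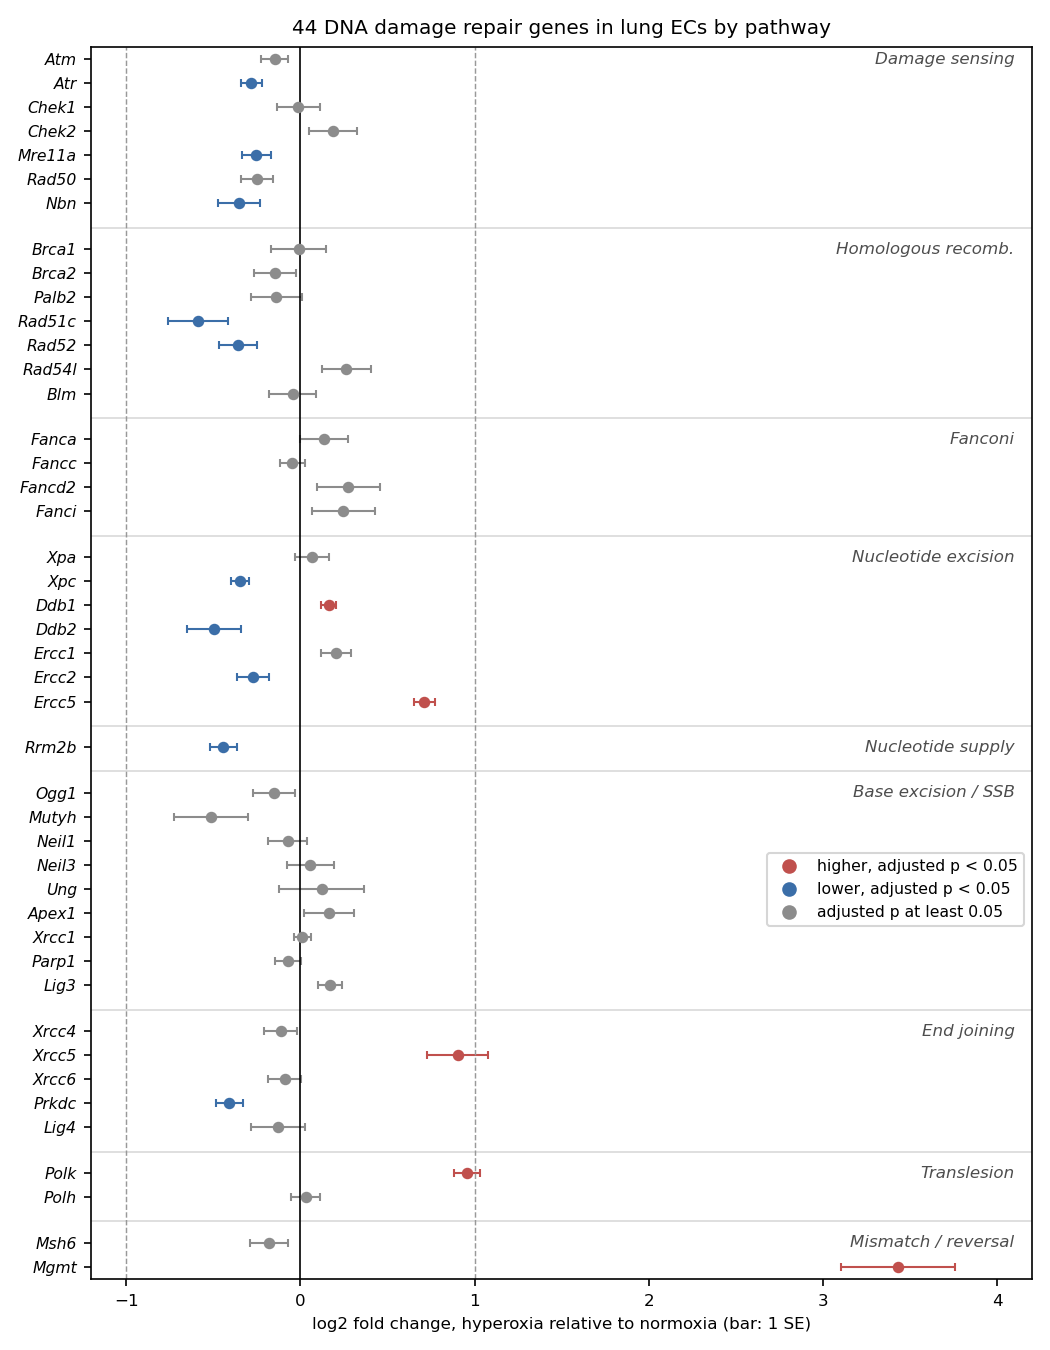
Log2 fold change of each of the 44 repair genes in hyperoxia relative to normoxia (points, bars of 1 SE), grouped by pathway, with dashed lines at -1 and 1. Red points are the 5 higher and blue points the 10 lower at an adjusted p below 0.05, and Mgmt at 3.43 is the single gene beyond 1.

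Of 7 damage sensing and checkpoint genes, Atr, Nbn and Mre11a fell and the other 4 did not pass, where 17.1% of all genes tested were lower. The median log2 fold change of the 7 was -0.25, and 6 of the 7 values were negative. Higher calls numbered 0 by edgeR, by DESeq2 and by limma-voom, and 0 also at an unadjusted p below 0.05. At that unadjusted threshold 3586 of all 15564 genes were higher by edgeR. Of the 3 that fell, Atr alone passed without normoxia 3, without hyperoxia 2 or without hyperoxia 4. Nbn (adjusted p = 0.0723 to 0.0999 where it failed) also failed without normoxia 1 or 4, and Mre11a (0.0689 to 0.0920) without normoxia 2 or hyperoxia 3.

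Atr (ENSMUSG00000032409, chr9:95857597-95951781 on the plus strand, mm10) encodes the kinase that senses single-stranded DNA at stalled forks. Its level was 34.7, 39.4, 34.4 and 36.8 CPM in normoxia 1 to 4 and 31.6, 30.0, 29.1 and 28.8 CPM in hyperoxia 1 to 4. Every hyperoxia library lay below every normoxia library. The group means were 36.3 ± 2.32 and 29.9 ± 1.24 CPM (SD, n = 4 each), which is -0.28 ± 0.06 (SE) as a log2 fold change, at an adjusted p of 0.00471. Nbn (ENSMUSG00000028224, chr4:15957925-15992589, plus strand), a subunit of the MRN complex that binds broken ends and recruits ATM, had the highest level per length among the sensing genes, with a mean of 7.15 FPKM. It was at 21.7, 17.7, 20.6 and 21.8 CPM in normoxia and at 18.2, 16.4, 17.1 and 12.4 CPM in hyperoxia. Here the groups overlapped, because hyperoxia 1 lay above normoxia 2, and hyperoxia 4 was the lowest. On the log2 scale Nbn was changed by -0.35 ± 0.12 (SE; adjusted p = 0.0407).

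The other subunits of the MRN complex pointed the same way. Mre11a, the nuclease of the complex, was at 16.7, 19.1, 19.4 and 17.2 CPM in normoxia and 16.3, 14.6, 14.5 and 15.4 CPM in hyperoxia, groups that did not overlap (log2 fold change -0.25, SE 0.08, adjusted p = 0.0345). Without hyperoxia 3 its adjusted p was 0.0791. Rad50, the scaffold of the complex, had a log2 fold change of -0.25 and missed the threshold at an adjusted p of 0.0527. For the kinase genes Atm, Chek1 and Chek2 the log2 fold changes were -0.15, -0.01 and 0.19, with adjusted p-values of 0.170, 0.947 and 0.325.

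Of the 7 homologous recombination genes, 2 fell and 5 did not pass, beside the 17.1% of all genes that were lower. Rad51c and Rad52 were the ones that fell, whereas the tumour suppressor genes Brca1, Brca2 and Palb2, which act early in the pathway, did not pass. All 7 members were low, with mean levels from 0.582 FPKM for Rad51c to 1.94 FPKM for Rad52. The median log2 fold change was -0.14, and higher calls numbered 0 by edgeR, DESeq2 and limma-voom (0 at an unadjusted p below 0.05). By edgeR 3586 of all 15564 genes were higher at that unadjusted threshold.

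Rad51c (ENSMUSG00000007646, chr11:87376645-87404954, minus strand), which takes part in strand exchange, was at 3.0, 3.19, 2.69 and 3.48 CPM in normoxia and at 2.23, 1.76, 1.95 and 2.27 CPM in hyperoxia. The groups did not overlap, but they rest on 48 to 63 reads per normoxia library and 31 to 41 per hyperoxia library. The log2 fold change was -0.59 (SE 0.17, adjusted p = 0.0219), the deepest fall among the 15 called members. Rad52 (ENSMUSG00000030166, chr6:119902698-119922828, plus strand), a single-strand annealing factor, was at 14.0, 12.6, 12.7 and 11.3 CPM in normoxia and 10.05, 8.33, 10.5 and 10.6 CPM in hyperoxia. Again no hyperoxia library reached the lowest normoxia library, and the log2 fold change was -0.36 (SE 0.11, adjusted p = 0.0257). Rad54l, a DNA translocase of the pathway, had a log2 fold change of 0.26 (adjusted p = 0.164), with 15.4% of its exon bases shared with the opposite-strand gene Lrrc41. Without hyperoxia 2 neither Rad51c nor Rad52 passed (adjusted p = 0.0681 and 0.0740), nor did Rad51c without normoxia 4 (0.0653) or Rad52 without normoxia 1 (0.0666). The helicase gene Blm stood at -0.05 (adjusted p = 0.818). Brca1, Brca2 and Palb2 had log2 changes of -0.01, -0.15 and -0.14, at adjusted p-values of 0.967, 0.382 and 0.502.

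No Fanconi member passed: calls numbered 0 of 4 by edgeR, by DESeq2 and by limma-voom, and 0 at an unadjusted p below 0.05. Of all genes tested by edgeR, 18.5% were higher and 17.1% lower, or 3586 and 3451 of 15564 at the unadjusted threshold. The Fanconi genes act together in unhooking DNA interstrand crosslinks. Fancc (ENSMUSG00000021461, chr13:63285043-63497278, minus strand), part of the core ubiquitin ligase, had the highest level of the 4 at a mean of 2.06 FPKM. It was at 18.9, 17.7, 16.6 and 17.3 CPM in normoxia and 17.0, 16.6, 17.3 and 17.3 CPM in hyperoxia, with the hyperoxia values inside the normoxia range (log2 fold change -0.05, SE 0.07, adjusted p = 0.648). Fancd2 (ENSMUSG00000034023, chr6:113531682-113597017, plus strand), the protein that the core complex ubiquitinates, was at 3.18, 4.72, 5.93 and 5.58 CPM in normoxia and 5.77, 5.83, 6.24 and 5.71 CPM in hyperoxia. Normoxia 1 was the low library and normoxia 3 lay among the hyperoxia libraries, so that the log2 difference was 0.28 ± 0.18 (SE; adjusted p = 0.264). Its partner Fanci (log2 fold change 0.25, adjusted p = 0.317) was also lowest in normoxia 1, the library with the lowest sum of proliferation genes, 635 CPM against 849 to 919 CPM in the other normoxia libraries. Fanca, another core complex subunit, stood at 0.13 (adjusted p = 0.484), with 10.5% of its exon bases under the opposite-strand gene Zfp276, and Fanci shares 15.95% with Polg. With a proliferation score as a covariate, Fancd2 passed at a log2 fold change of 0.42 (adjusted p = 0.0352).

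Nucleotide excision repair genes moved in both directions. Of 7 members, Ercc5 and Ddb1 rose, and Xpc, Ddb2 and Ercc2 fell, beside 18.5% of all genes tested higher and 17.1% lower. The damage recognition genes Xpc and Ddb2 were thus lower, while the gene for the nuclease that makes the 3′ incision, Ercc5, was higher. Xpa and Ercc1 did not pass.

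Ercc5 (ENSMUSG00000026048, chr1:44147744-44181260, plus strand), also named XPG, was at 29.1, 32.3, 30.7 and 32.2 CPM in normoxia and at 53.4, 48.7, 47.3 and 54.0 CPM in hyperoxia. The lowest hyperoxia library lay well above the highest normoxia library. Means were 31.1 ± 1.48 and 50.9 ± 3.34 CPM (SD, n = 4 each), 0.71 ± 0.06 (SE) on the log2 scale (adjusted p = 1.2e-05), and without hyperoxia 3 it was 0.74. Ddb1 (ENSMUSG00000024740, chr19:10605625-10629813, plus strand) encodes a shared adaptor of CUL4 ubiquitin ligases that serves many substrates besides repair, and it was the most abundant member per length at a mean of 91.2 FPKM. It was at 369, 335, 368 and 368 CPM in normoxia and 396, 410, 402 and 404 CPM in hyperoxia. Normoxia 2 was below the other normoxia libraries, and all hyperoxia libraries were above them, 0.16 ± 0.05 (SE) apart on the log2 scale (adjusted p = 0.0169).

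Xpc, which binds the distorted helix first in global genome repair, was at 36.7, 34.7, 35.2 and 34.0 CPM in normoxia and 26.7, 27.6, 28.2 and 28.0 CPM in hyperoxia. The groups were far apart for their small spread, and the log2 fold change was -0.35 (SE 0.05, adjusted p = 0.000462). Ddb2, the subunit that recognises ultraviolet lesions, was at 4.41, 5.06, 4.53 and 4.31 CPM in normoxia and 3.997, 3.17, 3.03 and 2.77 CPM in hyperoxia. It too showed no overlap, and its log2 change was -0.50 ± 0.16 (SE; adjusted p = 0.0294). However, 23.8% of the exon bases of Ddb2 lie under the opposite-strand gene Acp2, which had 33.4 CPM against 3.91 for Ddb2, and whether counting used strand is not stated. Ercc2, a helicase of TFIIH, was lower at -0.27 ± 0.09 (SE) in log2 units (adjusted p = 0.0378), with 15.1, 16.3, 15.9 and 14.9 CPM in normoxia against 13.6, 14.3, 11.8 and 11.8 CPM in hyperoxia. Opposite-strand genes cover 24.6% (Gm26852, 1.31 CPM) and 17.8% (Klc3, 0.54 CPM) of its exon bases, against 14.2 CPM for Ercc2. Neither Ddb2 nor Ercc2 passed without normoxia 2 or 3 or without hyperoxia 3 or 4. Ddb2 (adjusted p = 0.0506 to 0.0859 where it failed, 0.0635 without hyperoxia 3) also failed without hyperoxia 2, and Ercc2 (0.0546 to 0.109, 0.0930 without hyperoxia 3) without normoxia 1 or 4, while Ddb1 failed without hyperoxia 2 (0.0548). Ercc1, which makes the 5′ incision with XPF, had hyperoxia libraries above all normoxia libraries (14.3 to 16.5 against 12.1 to 14.2 CPM) but an adjusted p of 0.0917 at a log2 fold change of 0.21, and Xpa, which verifies the lesion, stood at 0.07 (adjusted p = 0.630).

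Rrm2b (ENSMUSG00000022292, chr15:37923952-37961318, minus strand) encodes a small ribonucleotide reductase subunit that makes deoxynucleotides for repair outside S phase. It was at 32.5, 32.9, 37.6 and 37.3 CPM in normoxia and 28.7, 23.8, 25.8 and 25.02 CPM in hyperoxia. No library of either group crossed over, and the means of 35.1 ± 2.75 and 25.8 ± 2.07 CPM (SD, n = 4 each) differed by -0.44 ± 0.08 (SE) on the log2 scale (adjusted p = 0.00121).

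Base excision and single-strand break repair, the route for oxidised bases, held 9 members and none that passed. Among all genes tested 18.5% were higher and 17.1% lower. Calls numbered 0 in both directions by edgeR, DESeq2 and limma-voom, and 1 higher and 1 lower at an unadjusted p below 0.05 by edgeR. At that unadjusted threshold 3586 of all 15564 genes were higher and 3451 lower. The median log2 fold change of the 9 was 0.01. The fitted log2 fold changes ran from -0.51 (Mutyh, SE 0.21) to 0.17 (Lig3, SE 0.07), and these data do not show that the 9 genes stayed level.

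Parp1 (ENSMUSG00000026496, chr1:180568924-180601254, plus strand), the enzyme that tags nicks with poly(ADP-ribose), was the highest per length of the 9 at a mean of 11.5 FPKM. It was at 58.2, 58.9, 69.9 and 63.5 CPM in normoxia and 58.1, 55.8, 66.5 and 58.1 CPM in hyperoxia. The groups overlapped broadly (log2 fold change -0.07, SE 0.07, adjusted p = 0.490). Lig3 (ENSMUSG00000020697, chr11:82781108-82804274, plus strand), the ligase that seals the nick with XRCC1, had the smallest adjusted p of the pathway. Its levels were 21.8, 21.9, 22.7 and 20.5 CPM in normoxia and 23.1, 23.9, 26.8 and 24.0 CPM in hyperoxia. All hyperoxia libraries were the higher ones, yet the log2 fold change of 0.17 (SE 0.07) had an adjusted p of 0.0752, and 25.1% of its exon bases are shared with the opposite-strand gene Rffl.

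Among the glycosylase genes, Ogg1, which excises 8-oxoguanine, had a log2 fold change of -0.15 (adjusted p = 0.350). The opposite-strand gene Camk1, at 71.4 CPM against 8.0 for Ogg1, covers 10.6% of its exon bases. Mutyh, which removes adenine paired with 8-oxoguanine, had -0.51 (SE 0.21, adjusted p = 0.0867) on 25 to 55 reads per library. Neil1, Neil3 and Ung, for other damaged bases and uracil, had -0.07, 0.05 and 0.12. Xrcc1, the scaffold of the route, was the steadiest member by its SE apart from Ddb1, with a mean of 39.0 ± 1.01 CPM in normoxia and 39.2 ± 1.39 CPM in hyperoxia (SD, n = 4 each; log2 fold change 0.01, SE 0.05). Apex1, the abasic site endonuclease, stood at 0.16 (adjusted p = 0.416), but 61.7% of its exon bases overlap the opposite-strand gene Pip4p1.

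End joining genes moved in both directions, with 1 of 5 members higher and 1 lower, beside 18.5% and 17.1% of all genes tested. Xrcc5, which encodes the Ku80 side of the ring that slides onto broken ends, rose, and Prkdc, which encodes the catalytic subunit recruited by that ring, fell. Xrcc6, for the Ku70 side of the same ring, did not pass. The ligation genes Xrcc4 and Lig4 had log2 fold changes of -0.11 and -0.13 (adjusted p = 0.390 and 0.564).

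Xrcc5 (ENSMUSG00000026187, chr1:72307421-72394952, plus strand) was at 3.43, 3.41, 3.24 and 2.43 CPM in normoxia and 4.80, 5.66, 5.61 and 7.32 CPM in hyperoxia. Every hyperoxia library was above every normoxia library, hyperoxia 4 the most, on 44 to 60 reads per normoxia library and 84 to 132 per hyperoxia library. The log2 fold change was 0.90 (SE 0.18, adjusted p = 0.00244). Xrcc6 (ENSMUSG00000022471, chr15:81987835-82040085, plus strand) was the highest per length of the 5, at a mean of 3.09 FPKM against 1.21 FPKM in normoxia and 2.28 FPKM in hyperoxia for Xrcc5. Its levels of 14.1, 14.3, 15.3 and 13.7 CPM in normoxia and 14.9, 13.3, 14.1 and 11.6 CPM in hyperoxia overlapped (log2 fold change -0.09, SE 0.09, adjusted p = 0.491). Prkdc (ENSMUSG00000022672, chr16:15637866-15842235, plus strand) was at 36.7, 38.1, 35.1 and 35.7 CPM in normoxia and 23.2, 28.3, 29.5 and 28.6 CPM in hyperoxia. All hyperoxia libraries were lower, hyperoxia 1 the lowest, and the log2 difference was -0.41 ± 0.08 (SE; adjusted p = 0.00189).

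Of the translesion polymerase genes, Polk rose and Polh did not pass. Polk (ENSMUSG00000021668, chr13:96480690-96542579, minus strand) encodes polymerase kappa, which copies past bulky adducts on guanine. It was at 21.4, 26.1, 21.9 and 24.7 CPM in normoxia and 44.6, 45.1, 43.9 and 49.3 CPM in hyperoxia. The groups were separated by more than the whole range of either, with means of 23.5 ± 2.22 and 45.7 ± 2.44 CPM (SD, n = 4 each). The log2 fold change was 0.96 (SE 0.07) with the smallest adjusted p of all members, 5.3e-06, and was just short of the fold threshold of 1. Without hyperoxia 3 it was 0.98, and with the epithelial score as a covariate 0.96 (adjusted p = 0.0685). Polh, for polymerase eta, which copies past ultraviolet dimers, had a log2 fold change of 0.03 (adjusted p = 0.810).

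Mgmt gave the largest change of the 44. It encodes the methyltransferase that takes alkyl groups off guanine in a single step and is used up by doing so. The gene (ENSMUSG00000054612, chr7:136894614-137130266, plus strand) was at 0.980, 0.569, 0.448 and 0.221 CPM in normoxia, which is 16, 10, 8 and 4 reads, and at 6.11, 6.34, 4.29 and 7.10 CPM in hyperoxia, or 107, 112, 75 and 128 reads. All hyperoxia libraries lay far above normoxia, and hyperoxia 3 was the lowest of them. The log2 fold change was 3.43 (SE 0.33, adjusted p = 2.3e-05), from a mean of 0.190 FPKM to one of 2.05 FPKM.

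The alveolar epithelial genes moved in the same libraries as Mgmt. Their summed level was 400, 318, 330 and 291 CPM in normoxia 1 to 4 and 2537, 2480, 857 and 2236 CPM in hyperoxia 1 to 4, so that hyperoxia 3 was the lowest hyperoxia library for both, and normoxia 1 the highest and normoxia 4 the lowest normoxia library for both. Fibroblast genes had the same extreme libraries, with sums of 366 CPM in normoxia 1, 183 in normoxia 4 and 251 in hyperoxia 3. So did mural and myofibroblast genes, at 85.1, 48.1 and 105 CPM in those libraries. Hyperoxia 3 also had the lowest hyperoxia sum for leukocyte genes (242 CPM), erythroid and platelet genes (97.0 CPM) and p53 targets outside repair (3814 CPM). For proliferation genes it had the highest hyperoxia sum (870 CPM). Among the hyperoxia libraries, Mgmt was highest in hyperoxia 4 and the epithelial sum in hyperoxia 1. The most abundant epithelial marker, Sftpc, had a log2 fold change of 3.40. Leaving out hyperoxia 3 gave 3.56 for Mgmt (adjusted p = 1.9e-05), and the epithelial score as a covariate gave 2.11 (SE 0.66, adjusted p = 0.186). Beyond these fits, the part of epithelial RNA in the Mgmt result was not tested, nor was that of fibroblast or mural RNA. For Polk and Ercc5 hyperoxia 3 was also the lowest hyperoxia library, at 43.9 CPM where the others began at 44.6 and at 47.3 CPM where the others began at 48.7, and for Xrcc5 it lay among the others.

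Msh6 (ENSMUSG00000005370, chr17:87975050-87990883, plus strand), a subunit of the complex that recognises mispaired bases, was at 25.2, 32.3, 31.0 and 30.2 CPM in normoxia and 24.0, 25.9, 31.7 and 23.1 CPM in hyperoxia. Hyperoxia 3 lay among the normoxia libraries and normoxia 1 among the hyperoxia libraries. The log2 fold change was -0.18 (SE 0.11, adjusted p = 0.225), and without hyperoxia 3 it was -0.29 (adjusted p = 0.0379). Its mean level, 6.52 FPKM, was the higher of the pair.

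**Figure D2:**
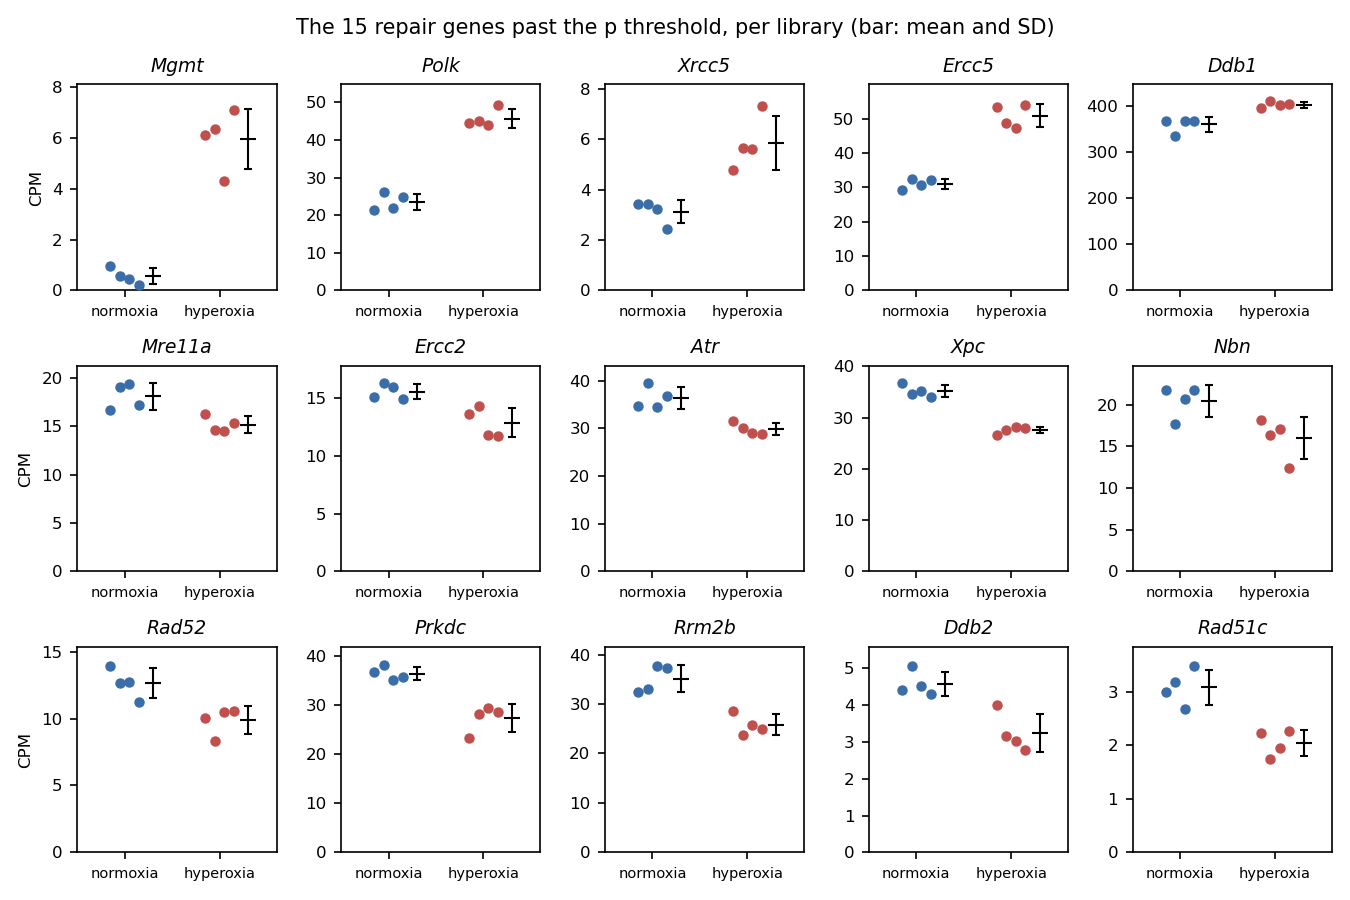
CPM of the 15 members past an adjusted p of 0.05 in each library (points, replicates 1 to 4 from left to right; blue normoxia, red hyperoxia), with the mean and SD of each group as a bar, each panel with its own axis from 0. Groups overlap for Nbn alone, and Mgmt runs from 0.221 to 0.980 CPM in normoxia and from 4.29 to 7.10 CPM in hyperoxia.

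The sequences upstream of the 3 members that rose most are shown so that their start regions can be compared. They are RefSeq windows of 250 bases ending at the base before a listed start site, in build GRCm38.p6, read 5′ to 3′ on the strand of the gene. Capitals mark the GC box, GGGCGG or its complement CCGCCC, a letter run common in promoters that lack a TATA box.
Mgmt, chr7:136894336-136894585, plus strand: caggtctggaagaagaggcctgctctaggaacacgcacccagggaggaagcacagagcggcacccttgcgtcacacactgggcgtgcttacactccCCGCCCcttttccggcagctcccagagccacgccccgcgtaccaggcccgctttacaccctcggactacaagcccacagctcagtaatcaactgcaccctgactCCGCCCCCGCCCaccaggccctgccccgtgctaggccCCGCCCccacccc
Polk, chr13:96542580-96542829, minus strand: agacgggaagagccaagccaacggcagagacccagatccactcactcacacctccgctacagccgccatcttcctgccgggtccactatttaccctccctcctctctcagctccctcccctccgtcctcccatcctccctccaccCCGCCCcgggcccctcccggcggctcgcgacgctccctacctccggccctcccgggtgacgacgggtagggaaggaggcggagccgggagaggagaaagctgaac
Xrcc5, chr1:72307171-72307420, plus strand: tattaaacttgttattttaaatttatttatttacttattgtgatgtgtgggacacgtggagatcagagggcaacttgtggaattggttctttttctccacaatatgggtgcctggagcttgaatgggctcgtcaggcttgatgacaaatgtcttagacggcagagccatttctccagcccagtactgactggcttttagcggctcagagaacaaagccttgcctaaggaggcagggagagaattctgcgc
The Mgmt window was 67.2% G and C and held 4 GC boxes, the Polk window 68.0% with 1, and the Xrcc5 window 44.8% with 0. RefSeq lists another start for Mgmt and for Polk, neither with a GC box. The printed Polk and Xrcc5 windows adjoin the start of the deposited gene. The deposited Mgmt gene starts at 136894614, downstream of the end of its window at 136894585. Of the 37 members with a window in the table, 25 (67.6%) held a GC box in the upstream bases, against 35.4% of 27025 genes. Those 27025 genes were not limited to genes tested here, whereas every member was tested, so the shares are not like for like. Matches are descriptions of letters and not of bound sites.

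In the whole windows of 300 bases, the p53 half-site was found for 4 of the 37 members (Fanca, Neil1, Neil3 and, at its other start, Polk), or 10.8%, against 9.55% of all genes. The cell cycle element CHR (TTTGAA, both strands) was found for Ercc5 alone, 2.70% against 20.2%. The E2F letters TTTGGCGC, TTTCGCGC or TTCCCGCC, of which the last shares CCGCC with the GC box, were found for Chek1, Rad51c and Msh6, 8.11% against 3.39%. Of these genes, Ercc5 and Polk rose, Rad51c fell and the other members did not pass.

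**Figure D3:**
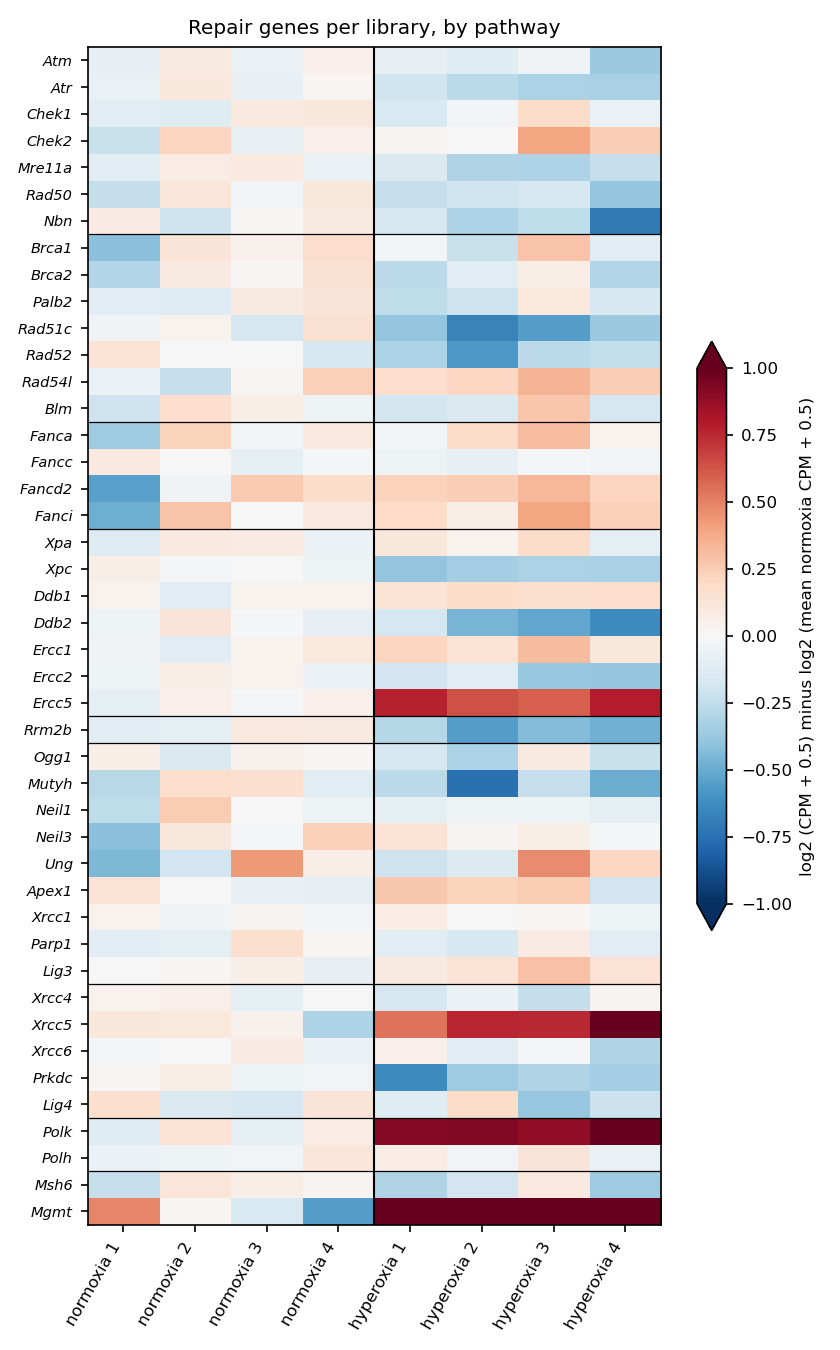
Heat map of the 44 members (rows, by pathway) in the 8 libraries (columns), coloured by log2 (CPM + 0.5) relative to the mean of the normoxia libraries and capped at -1 and 1. Mgmt, Polk, Xrcc5 and Ercc5 are red in all 4 hyperoxia libraries, Prkdc, Rrm2b, Xpc and Rad51c are blue in all 4, and normoxia 1 is blue for Fancd2, Fanci and Brca1.

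The other genes of these pathways also moved in both directions. Of 116 listed, 115 were tested (Neil2 was too low), of which 9 were higher, 21 lower and 85 did not pass, beside 18.5% of all genes higher and 17.1% lower, with a median log2 fold change of -0.08. In the Fanconi pathway, where no member passed, 6 of 14 other genes fell, Fancb, a core complex subunit, the most (9.29 ± 0.38 to 5.08 ± 0.30 CPM, SD, n = 4 each; log2 fold change -0.87, adjusted p = 0.000106). In damage sensing 4 of 14 fell, among them Rad17, the loader of the checkpoint clamp (log2 fold change -0.47, adjusted p = 0.000241). Among translesion genes 4 of 11 fell, with Rev3l, the catalytic subunit of polymerase zeta, at -0.42 (adjusted p = 0.000942), opposite in sign to Polk.

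Increases among these genes were few. Parp3, a poly(ADP-ribose) polymerase that acts at breaks, was the single one past both thresholds (2.80 ± 0.74 to 7.73 ± 1.51 CPM, SD, n = 4 each; log2 fold change 1.46, adjusted p = 0.000361), and base excision and single-strand break repair otherwise had 1 more higher and 3 lower of 18 tested. In end joining, 1 of 8 rose and 1 fell, Rif1, which shields broken ends from resection, at -0.49 (adjusted p = 0.000118). Nucleotide excision repair had 3 of 16 higher, led by Ercc6, a factor of transcription-coupled repair (0.32, adjusted p = 0.00150), and nucleotide supply had 2 of 6 higher, led by the large ribonucleotide reductase subunit gene Rrm1 (0.31, adjusted p = 0.00264), opposite to Rrm2b.

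Repair genes and the wider p53 programme were set side by side, since p53 is known to induce several of both. Of 21 p53 target genes outside repair, 18 rose and 2 fell, with a median log2 fold change of 1.43, against -0.06 for the 44 members. Among all genes tested, 18.5% were higher and 17.1% lower. Both lists were chosen with earlier results of these data known, and the difference between them was not tested. With the alveolar epithelial score as a covariate 174 of all 15564 genes were higher and 34 lower, and 0 members passed. At an unadjusted p below 0.05 that fit gave 1065 and 891 of all genes. Of the 21 p53 targets, 11 were higher in it and 0 lower (16 and 0 at the unadjusted threshold). Their summed level was 2212 to 2622 CPM in normoxia and 3814 to 4205 CPM in hyperoxia, and among the most abundant of them Cdkn1a, the cell cycle inhibitor p21, was at 168 CPM on average in normoxia and 909 CPM in hyperoxia (adjusted p = 8.4e-08, log2 change 2.44). Xpc, Ddb2 and Rrm2b, which are known as p53-induced repair genes in human cells, had log2 fold changes of -0.35, -0.50 and -0.44 in the same libraries. They are examples and not every repair gene that p53 can induce. Whether p53 acts on any member in these mouse cells, including those that rose, was not tested. Over all 44 members 5 rose, Polk (0.96) and Ercc5 (0.71) among them, and 10 fell. Plk2, the most abundant of the list, had -0.19 (adjusted p = 0.149), and Pltp, also among the most abundant 3, fell by 0.45 on the log2 scale.

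Many repair genes are also transcribed more in dividing cells. Of 26 proliferation genes 2 were higher, 0 lower and 24 did not pass, beside 18.5% of all genes tested higher and 17.1% lower. Without hyperoxia 3, 0 were higher and 2 lower, beside 17.6% and 15.7% of all genes. DESeq2 on all libraries gave 2 higher and 1 lower, beside 16.3% and 13.8%. By edgeR on all libraries the median log2 change was -0.16. The summed levels of these proliferation genes, 635 to 919 CPM in normoxia and 707 to 870 CPM in hyperoxia, overlapped. The most abundant were Mki67, Top2a and Mcm3, at log2 fold changes of -0.26, -0.02 and 0.05. With the proliferation score as a covariate 6 members were higher and 8 lower, beside 17.8% and 15.8% of all genes tested.

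**Figure D4:**
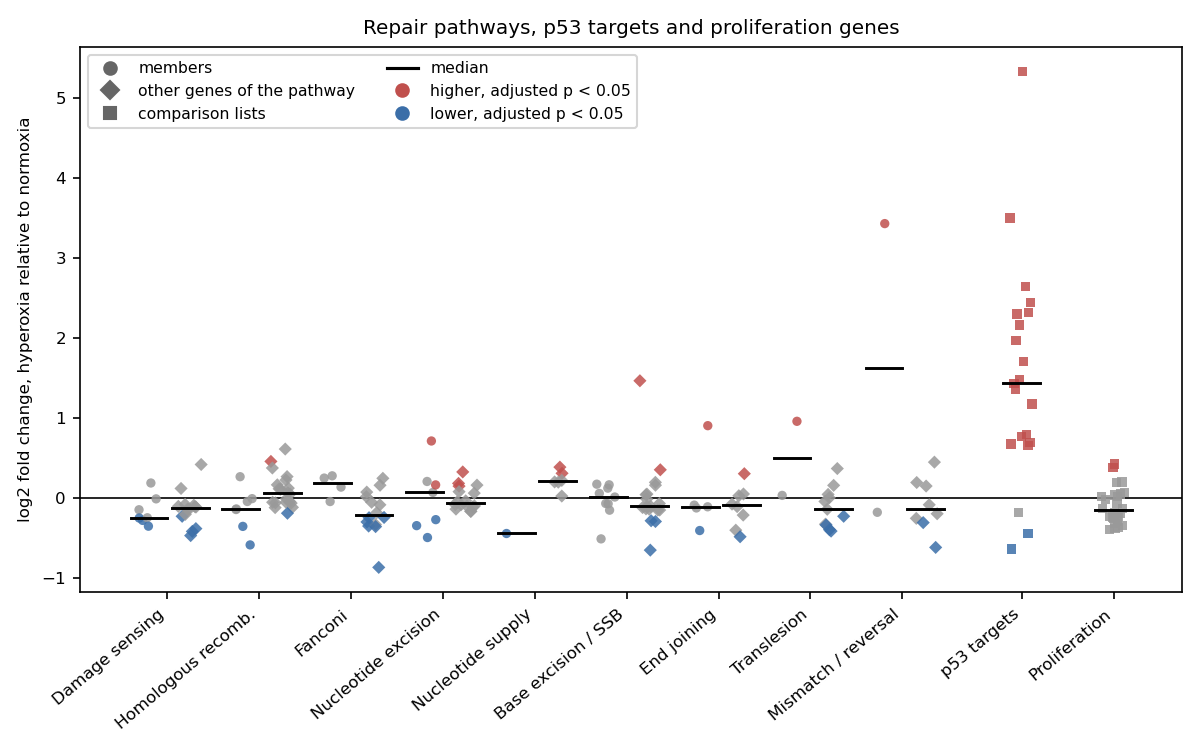
Log2 fold change in hyperoxia relative to normoxia of the members (circles) and the other genes (diamonds) of each repair pathway, beside 21 p53 targets and 26 proliferation genes (squares), with medians as bars and colours for calls at an adjusted p below 0.05. The members' medians in pathways with 4 or more members lie between -0.25 and 0.19, that of the p53 targets at 1.43.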

How the data were processed

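Bulk RNA-seq libraries (SMARTer mRNA kit, whose use of strand is not stated in the sources used here) were sequenced by the authors. The submitters' processing notes name HISAT2 2.0.5, featureCounts 1.5.0-p3 and mm10. The authors deposited raw gene counts, which were used for every test, and FPKM values, which were used to compare levels between genes. The deposited FPKM differed from count per length and library total by one constant per library. Totals of 16098086 to 18300730 counts set the precision of low genes, where counting error is largest.

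No pair of libraries agreed within sampling noise (chi-square of at least 4.65 per degree of freedom). That check cannot show that they came from separate animals, since separate preparations of 1 pool can also exceed sampling noise. Each library was counted as its own sample, as the labels list it. Counts of the 8 libraries were fitted with edgeR 4.0.16 in R 4.3.3 (TMM, filterByExpr at its defaults, quasi-likelihood test, group as the single term), with Benjamini-Hochberg adjustment over all 15564 genes tested. CPM were computed on TMM-scaled totals. Thresholds were an adjusted p of 0.05 and, where stated, an absolute log2 fold change of 1. DESeq2 1.42.0 and limma-voom (limma 3.58.1) were alternatives, along with other scalings and filters, a replicate block, 2 covariates and leaving out each library. The fit was tested on simulated data. Coordinates are those of the deposited table, identical to GENCODE M21 for 42 of 44 members, and exon overlaps were computed from that annotation.

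Values by library were given for members past both thresholds, for the member of each pathway with the smallest adjusted p and for that with the highest mean FPKM. Mre11a, Xpc, Ddb2, Ercc2 and Xrcc5 were added to these after their values were seen, and so was the GC box. Of other repair genes, those past both thresholds and the 1 of each pathway with the smallest adjusted p were named, except in homologous recombination and mismatch repair, which are not reported here for these other genes, and of marker lists up to 3 of the most abundant. Members and lists were chosen with earlier results of these data known. Promoter windows matched 37 of 44 members by symbol.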

Additional observations from a re-analysis of the deposited data

Results flagged for a closer look

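Within groups of 4 libraries, 3 values stood far from the other 3 of their group by Dixon's gap, out of 88 groups examined, and chance alone marks about 1 in 20. Blm, the helicase gene, was at 15.2 CPM in hyperoxia 3, where the other hyperoxia libraries were at 10.8 to 11.2 CPM. Ddb1 was at 335 CPM in normoxia 2, with the other normoxia libraries at 368 to 369 CPM. Apex1 was at 4.55 CPM in hyperoxia 4, with the others at 6.23 to 6.45 CPM. Blm and Apex1 did not pass the test between groups, and Ddb1 did.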

How the results depend on the processing

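The 5 higher, 10 lower and 1 past both thresholds among the members changed as follows. A mean of at least 10 CPM tested 28 members, Mgmt and Xrcc5 not among them, and left 3 higher and 0 past both thresholds. With that filter 22.3% of all genes tested were higher and 23.4% lower. No filter on low counts left 6 lower, where 7.71% of all genes tested were lower. With the alveolar epithelial score as a covariate 0 were higher, 0 lower and 0 past both thresholds. Of the 115 other repair genes tested 0 were higher and 0 lower in that fit (10 and 4 at an unadjusted p below 0.05). At that unadjusted threshold 1065 of all 15564 genes were higher and 891 lower. Several log2 fold changes stayed about as large in that fit, with wider SEs (Polk 0.96, Xpc -0.33, Atr -0.31, Rad51c -0.60), while Mgmt (2.11) and Prkdc (-0.16) were smaller. Leaving out 1 library at a time gave 4 to 5 higher, 5 to 10 lower and 1 to 2 past both thresholds, the 2 without normoxia 2. Lower members numbered 6 without normoxia 3, 5 without hyperoxia 2 and 6 without hyperoxia 4. In those fits 16.4%, 13.4% and 13.8% of all genes tested were lower. The other repair genes gave 5 to 10 higher, with 5 without hyperoxia 4. DESeq2 gave 5 higher and 8 lower (16.3% and 13.8% of all genes), limma-voom 5 and 10 (18.4% and 17.0%). A replicate block gave 4 higher and 5 lower, beside 16.6% and 14.2% of all genes. However, the correlations of same-numbered samples, 0.12, 0.04, -0.13 and -0.14, do not pair them, and not every sample correlated best with its own number. The causes of these shifts were not tested beyond the genes or samples each setting removes.

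Of the 15 called members, 8 (Atr, Xpc, Ercc5, Rrm2b, Xrcc5, Prkdc, Polk and Mgmt) stayed past the threshold in every alternative without a covariate that tested them. Ercc2 lost it in 11 alternatives, Mre11a in 10, Nbn and Ddb2 in 8 each, Rad51c and Rad52 in 4 each and Ddb1 in 3. No called member changed sign in any alternative. Among 732 values of members and alternatives, 671 kept their side of the threshold, 56 lost it and 5 gained it. Among members with few reads, Mgmt had 4 to 16 per normoxia library, Mutyh 25 to 55 per library and Ung 43 to 95.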
